A study of Mus musculus with 2 samples.

Results

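Rab GTPases are small membrane-bound proteins that give each compartment of the endocytic and secretory pathways its identity. They are active when GTP is bound, recruiting effectors that move, tether and fuse vesicles, and they are switched off when the GTP is hydrolysed. Most proteins with a TBC domain, which in mice carry names starting with Tbc1d, are GTPase-activating proteins that speed up this hydrolysis, and in macrophages the Rab cycle steers phagosome maturation, receptor recycling and cytokine secretion.

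The nascent transcription of these genes was examined in the annotated transcript lists of a global run-on sequencing (GRO-seq) experiment, an assay in which isolated nuclei extend RNAs already under synthesis with a labelled nucleotide. Members were all gene names that begin with Rab and a digit, or with Tbc1d, in the annotation of the called transcripts. There were 68 such names among 11054 in the series, and they carried 379 of 43122 transcripts in the control library and 504 of 51365 in the library from IL-4-treated cells. They comprised 40 Rab GTPases, 6 Rab regulators (Rab11fip2, Rab11fip3, Rab11fip5, Rab3gap1, Rab3gap2 and Rab3il1) and 22 Tbc1d genes.

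Both libraries came from wild-type bone marrow-derived macrophages (BMDMs) of C57BL/6 mice aged 8 to 12 weeks. The cells were differentiated for 6 days with L929 supernatant, a source of the macrophage growth factor M-CSF. Control cells received no cytokine, and the other cells received IL-4, the cytokine of alternative polarization, at 20 ng/ml for 1 h. Duplicate run-on reactions of each condition were pooled into a single library, so n was 1 per condition, no value below has a replicate, and no difference was tested.

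The deposited measurement is a score for each called transcript, a strand-specific stretch of nascent RNA signal, rounded to 1 decimal. Its scaling to library size or to transcript length is not given in the sources used here. No read counts were given, so the depth is unknown and scores are not compared between genes of different length. Each gene was given, per library, the score of its highest transcript by name. Log2 ratios (IL-4 over control) were centred on the median of the 8879 genes with a value in both libraries, which was -0.38 before centring. The printed score is known to within 0.05, and the range of ratios this allows is called the rounding range, which carries no information on replicate error. Genes at least 2-fold apart after centring were counted as called. Of 11 macrophage marker names (Adgre1 and its older name Emr1 counted apart), 9 had transcripts in both libraries, with summed values of 23.0 in control and 22.6 after IL-4. The sums hold changes in both directions, such as Cd68 (5.8 and 7.3) and Csf1r (5.6 and 4.6). The names Adgre1 and Spi1 had no transcript in either library. None of 5 fibroblast markers had transcripts in both libraries. Of the T cell, neutrophil and B cell lists Cd8a (0.6 and 0.8), S100a8 (0.5 and 0.3) and Cd79a (0.4 in both) did. Mpo was seen in control alone at 0.6 and S100a9 after IL-4 alone at 0.2, while Cd3e, Ly6g and Col1a1 had no transcript in either library. In such bulk samples fewer cells of a type and less RNA per cell cannot be told apart.

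The plot of highest scores shows each member in both libraries. Of the Rab GTPases, 35 had a value in both, and of the Tbc1d genes 20 did. Rab13 was seen in the control library alone, with a score of 0.2, and 4 GTPases were seen in the IL-4 library alone. These were Rab44, an atypical large Rab, at 0.3, Rab23 at 0.2, Rab27a, a Rab of regulated secretion, at 0.1, and Rab25 at 0.1, whose single transcript lay in the exon of another gene, with none on the Rab25 strand in either library. Tbc1d10b and Tbc1d8b had a value of 0.1 in control and none after IL-4 by name. On the strand of Tbc1d10b, however, there were 2 transcripts in each library under any name, with highest scores of 0.4 and 0.3. Tbc1d10c (carabin), known as a brake on calcineurin in lymphocytes, carried no transcript in either library.

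**Figure D1:**
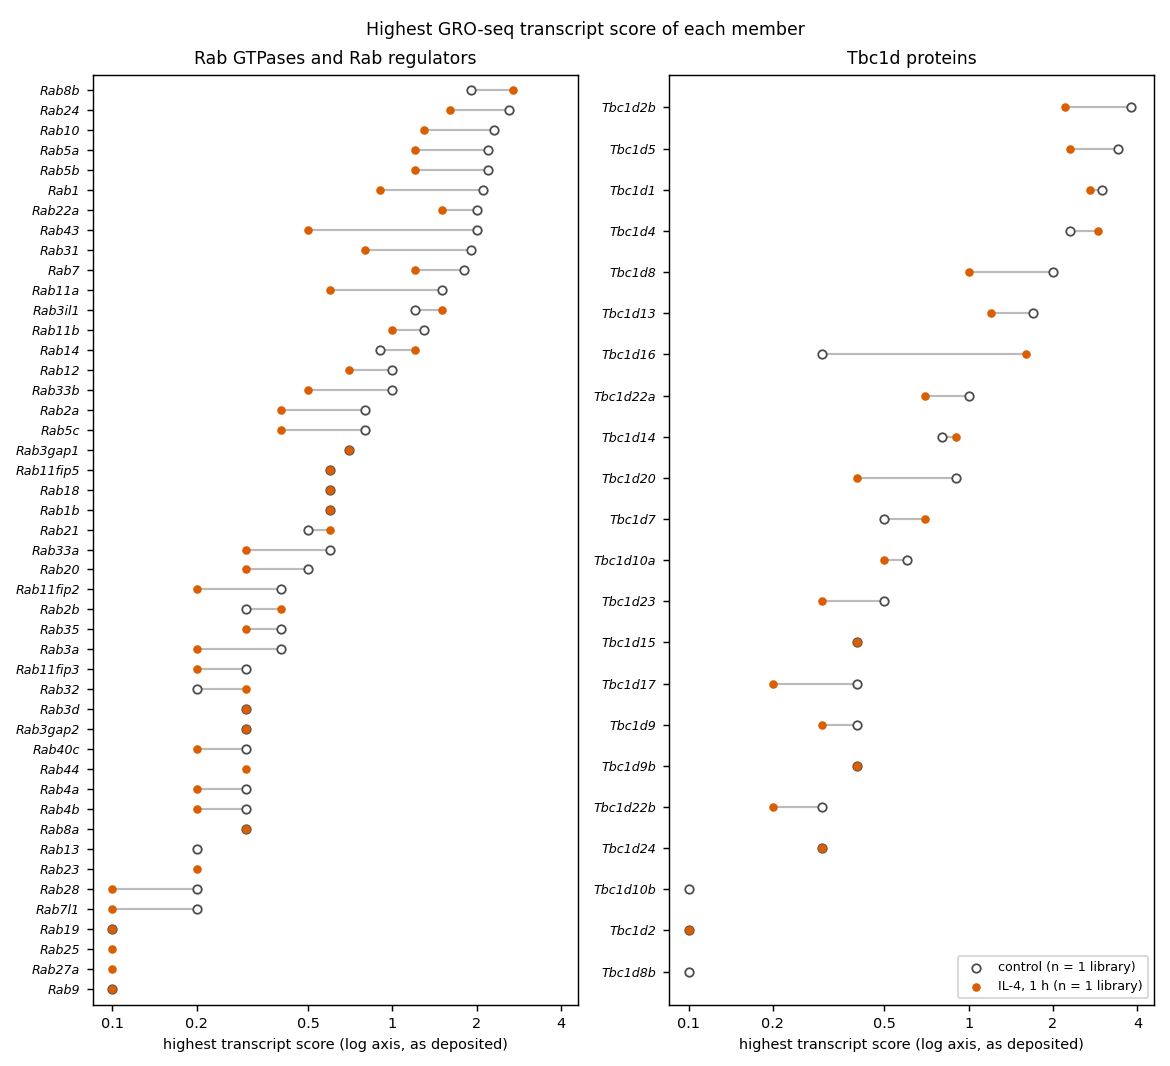
Highest transcript score (horizontal log axis, as deposited) of each of the 68 members in the control library (open points) and the IL-4 library (filled points), with a line joining the values of a member; each point is 1 library. Tbc1d16 moves from 0.3 to 1.6 and Rab43 from 2.0 to 0.5.

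Among the GTPases no gene was at least 2-fold higher after IL-4, against 8.06% of all genes, and 1 of 35, Rab43, was at least 2-fold lower, against 8.62%. In the Tbc1d family 1 of 20, Tbc1d16, was higher and none lower, and the 6 Rab regulators had none in either direction. The median centred log2 ratio was -0.21 for the GTPases (quartiles -0.62 and 0.38), 0.38 for the regulators and 0.04 for the Tbc1d genes (quartiles -0.24 and 0.38), beside quartiles of -0.51 and 0.38 over all genes. Rounding alone could place the GTPase median between -0.59 and 0.13 and the Tbc1d median between -0.23 and 0.38. Of the GTPases, 11 lay above the median gene and 23 below, and the Tbc1d genes were split 10 and 10. Without centring, 11 GTPases were lower and 0 higher, and 3 Tbc1d genes were lower and 1 higher, while over all genes 2161 were lower and 531 higher.

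**Figure D2:**
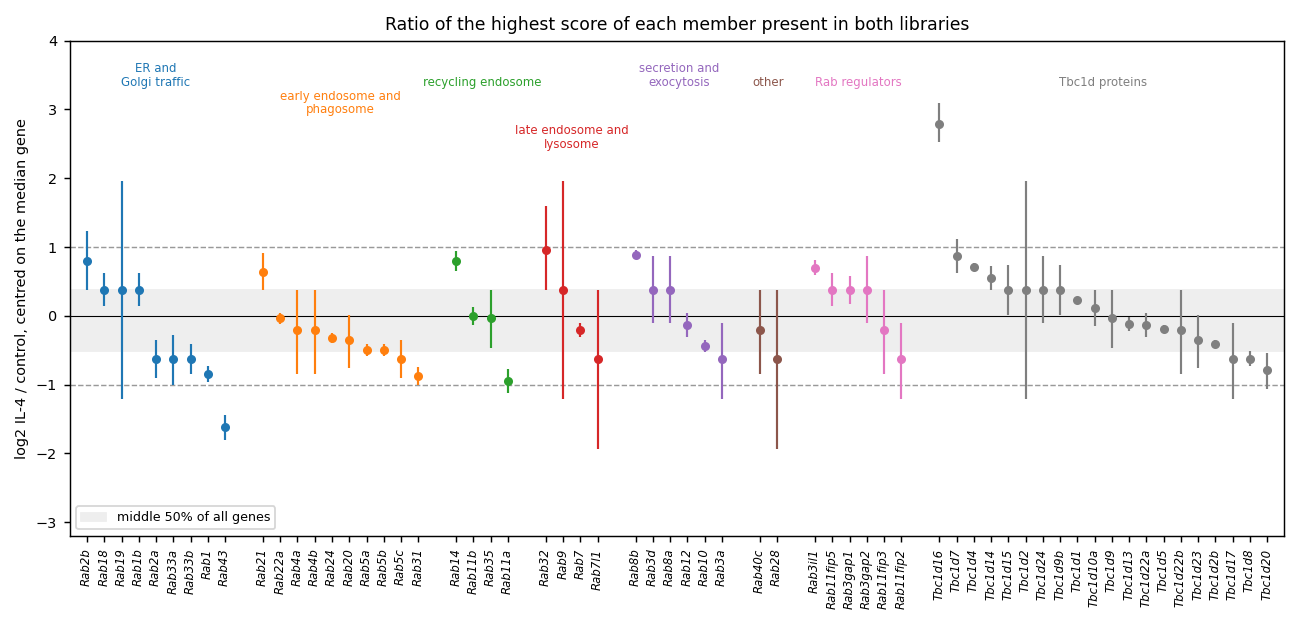
Centred log2 ratio of IL-4 over control (vertical axis) for the members with a value in both libraries (n = 1 library each), grouped by compartment for the Rab GTPases; bars are rounding ranges, the grey band is the middle 50% of all genes and dashed lines mark 2-fold. Tbc1d16 at 2.79 and Rab43 at -1.62 lie outside the lines, and 9 of the 10 GTPases of the early endosome and phagosome lie below 0 by this measure, beside 4 of 10 by own-strand score times length.

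The Rab GTPases were read by compartment. For 10 of the 35 the highest transcript by name lay outside the gene or its strand in at least 1 library, so the compartments are also given on the gene's own strand where this differs. Of the 9 that serve traffic between endoplasmic reticulum and Golgi, 4 were above the median gene and 5 below, with a median of -0.62. Of these values 4 (Rab19, Rab2b, Rab33a and Rab33b) lay elsewhere than in the named gene, and on the own strand the highest scores put 3 above and 3 below, with a median of -0.08. Score times length on that strand, defined below, put 2 above and 4 below. The called member was Rab43, which acts in Golgi traffic and in phagosome maturation (ENSMUSG00000030055.16, minus strand of chr6:87788853-87812164, mm10). Its highest score was 2.0 in control and 0.5 after IL-4. The centred log2 ratio was -1.62, with a rounding range of -1.81 to -1.45, and 14 and 7 transcripts carried its name. Rab1, needed for export from the endoplasmic reticulum, had 2.1 in control and 0.9 after IL-4, with a ratio of -0.84. Rab2a, which acts at the same border, had 0.8 and 0.4, with a ratio of -0.62. In both genes the control and IL-4 values came from different places. The matched pairs at these places read 2.1 and 0.8, and 1.0 and 0.9, for Rab1. For Rab2a they read 0.8 and 0.3, and 0.6 and 0.4.

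The lower signal of Rab43 was spread over its first intron. The 5 transcripts there that had control scores of 0.6 or more each overlapped an IL-4 transcript on the same strand, and the pairs read 2.0 and 0.5, 0.8 and 0.2, 0.8 and 0.2, 0.8 and 0.3, and 0.6 and 0.2 for control and IL-4. The transcript of the first exon had a score of 0.5 in both libraries. The highest control transcript, 146 bp long, lay 1219 bp from the nearest annotated start, an inner one of the gene, and was annotated as a (GA)n simple repeat, while the IL-4 transcript over the same place was not. Leaving out repeat transcripts therefore removed the control member of that pair alone, and the Rab43 log2 ratio was then -0.36. Taking the transcript nearest the start site turned the sign, to 1.32. In control a promoter transcript with a score of 0.2 lay 1.73 to 2.34 kb from the start, with no IL-4 transcript over it. This reading may therefore set different places side by side. All of the transcripts on the Rab43 strand also lay within Gm45140, an annotated gene that overlaps it on that strand, and the share of either gene in the signal was not tested.

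The early endosome and phagosome formed the group with the most members, 10. One of them was above the median gene and 9 were below, with a median of -0.34 and none past 2-fold. The highest score on the own strand put 2 above, 7 below and 1 at the median gene. Score times length over the whole strand, defined below, put 6 above and 4 below. Rab5a, a master regulator of early endosome fusion, had a highest score of 2.2 in control and 1.2 after IL-4, with a ratio of -0.50, and Rab5b, a close paralogue, had the same values. Rab5c, the third paralogue, had 0.8 and 0.4, with a ratio of -0.62. In Rab5a a second transcript of the same intron had a score of 2.0 in control and 1.0 over the same place after IL-4. Rab20, a phagosomal Rab, had 0.5 and 0.3. Its ratio of -0.36 had a rounding range from -0.76 to 0.02. Rab31, which shuttles between the trans-Golgi network and endosomes, had 1.9 and 0.8, with a ratio of -0.87. The highest transcripts of Rab5a and Rab31 were annotated as simple repeats in both libraries, and those of Rab5b as SINE elements. Rab24, a Rab linked to autophagy, is listed at 2.6 and 1.6, but both transcripts lay outside Rab24 in the last exon of another gene, and on the strand of Rab24 itself the highest scores were 0.3 and 0.2.

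Of the recycling endosome group, 4 had values in both libraries, with 1 above the median gene, 2 below and 1 at it. On the own strand the highest score and score times length each put 2 above and 2 below (medians -0.44 and 0.51). Rab11a, the best known Rab of recycling, had 1.5 in control and 0.6 after IL-4, with a ratio of -0.94 and a rounding range of -1.12 to -0.78. The control transcript behind this ratio, 55 bp long, was annotated as an (A)n simple repeat, and the IL-4 one was not. Of 3 overlapping transcript pairs of Rab11a, 1 was lower after IL-4, 1 equal and 1 higher (0.4 and 0.6). Rab14, which acts between Golgi, endosomes and maturing phagosomes, had 0.9 and 1.2, with a ratio of 0.79, so this pair of genes lay on opposite sides of the median gene. The 4 Rabs of late endosomes and lysosomes were split evenly. On the own strand 3 had values, with 2 above and 1 below by the highest score and 1 and 2 by score times length. Rab7, which drives fusion with lysosomes, had 1.8 and 1.2, with a ratio of -0.21. Rab32, a Rab of lysosome-related organelles, had 0.2 and 0.3, a ratio of 0.96 whose rounding range ran from 0.38 to 1.60.

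Among the 6 secretory Rabs with both values, 3 were above and 3 below the median gene. On the own strand the highest score put 4 above and 2 below, and score times length put 2 above and 4 below. Rab8b, which acts in polarized exocytosis (chr9:66843664-66919687, minus strand), had 1.9 in control and 2.7 after IL-4, with a ratio of 0.89 and a rounding range of 0.82 to 0.95. These values came from different places, 37358 bp from the start in control and 10985 bp after IL-4. On the Rab8b strand under any name the highest scores were 2.6 and 2.7, with a ratio of 0.47. Rab10, a relative of Rab8b that carries cargo to the plasma membrane, had 2.3 and 1.3, with a ratio of -0.44. Its highest transcript was annotated as a LINE element in both libraries. The remaining GTPases with both values, Rab28 and Rab40c, were below the median gene. Of the regulators, Rab3il1, a guanine nucleotide exchange factor of the Rab cycle, had 1.2 and 1.5, with a ratio of 0.70.

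The Tbc1d gene past 2-fold was Tbc1d16, a GTPase-activating protein known to act on Rab4a (ENSMUSG00000039976.4, minus strand of chr11:119143045-119228499). Its highest score was 0.3 in control and 1.6 after IL-4. The centred log2 ratio was 2.79 with a rounding range of 2.53 to 3.10, or 6.93-fold. This ratio ranked 11 of 8879 genes. The number of transcripts carrying its name was 3 in control and 51 after IL-4, a gain that ranked 23 of the same genes. Under each alternative reading of the gene value its ratio stayed above 0, from 1.32 for the transcript nearest the start site to 5.29 for the score times length defined below.

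The control transcripts of Tbc1d16 were 1 of score 0.2 at the start site and 2 in the third intron, with scores of 0.1 and 0.3. Each had an IL-4 counterpart, and the pairs read 0.2 and 0.5 at the start site, 0.1 and 1.1 at 28342 bp, and 0.3 and 1.6 at 33929 bp from it. The highest IL-4 transcript was 1156 bp long. It was annotated as a LINE element, and the control transcript under it as G-rich low complexity sequence. With repeat transcripts left out the log2 ratio of Tbc1d16 was 1.91.

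The other Tbc1d genes stayed within 2-fold. Tbc1d4 (AS160), an Akt substrate that controls Rabs in glucose transporter traffic, had 2.3 in control and 2.9 after IL-4, with a ratio of 0.71, and its transcripts numbered 16 and 29. Its paralogue Tbc1d1 had 3.0 and 2.7, with a ratio of 0.23. Tbc1d5, which acts on Rab7, had 3.4 and 2.3, with a ratio of -0.19. Tbc1d15, also known to act on Rab7, had 0.4 in both libraries, which is a centred ratio of 0.38. Tbc1d2b had 3.8 and 2.2, with a ratio of -0.41. In 11 of 11 matched transcript pairs the IL-4 score was the lower one before centring, as in 54.3% of all pairs of the series. Centred on the median of all pairs, the Tbc1d2b pairs had a median log2 ratio of -0.68, and the highest lay at the median pair. Tbc1d14, which binds Rab11 and restrains autophagy, had 0.8 and 0.9, with a ratio of 0.55. These 2 values came from different places, where the matched pairs read 0.8 and 0.7, and 0.6 and 0.9. Tbc1d8 had 2.0 and 1.0, with a ratio of -0.62.

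The families also differed in the number of called transcripts. GTPase names were carried by 209 transcripts in control and 231 after IL-4, a ratio of 1.11, and regulator names by 33 and 32, while Tbc1d names were carried by 137 and 241, a ratio of 1.76. The ratio over all transcripts of the series was 1.19. The Tbc1d ratio rested on few genes, as it was 1.42 without Tbc1d16 and 1.15 without Tbc1d16, Tbc1d8 and Tbc1d14. Tbc1d8 had 7 and 27 transcripts and Tbc1d14 had 12 and 31, gains that ranked 109 and 118 of 8879. The plot of transcript numbers shows all members. Transcripts were called in each library on its own, and in the IL-4 library they were longer (a median of 312 against 227 bp) and lower in score (63.9% at 0.2 or less against 45.4%). The part of this shift in the members' counts was not tested.

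**Figure D3:**
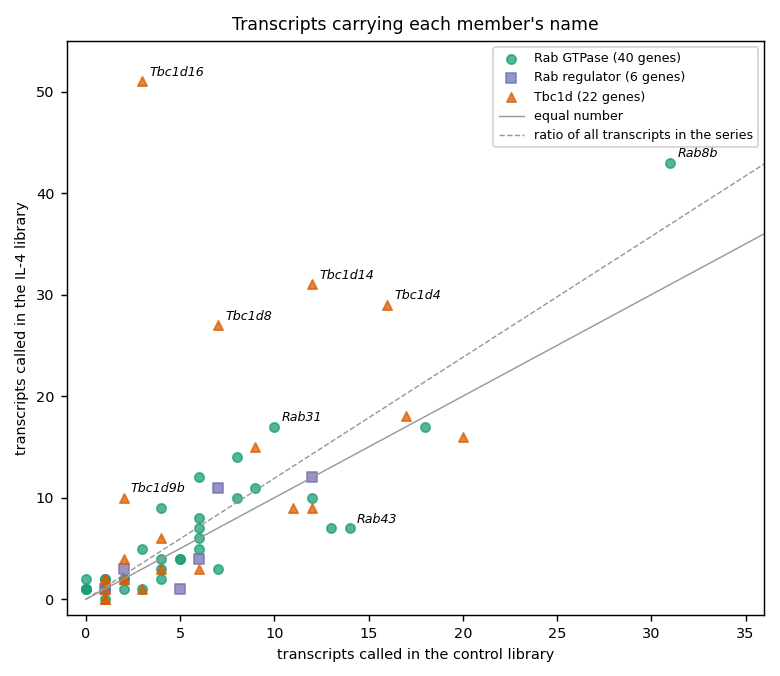
Number of called transcripts carrying each member's name in the control library (horizontal axis) and the IL-4 library (vertical axis), 1 point per gene; the solid line marks equal numbers and the dashed line the ratio of all transcripts, 1.19. Tbc1d16 (3 and 51), Tbc1d14 (12 and 31), Tbc1d8 (7 and 27) and Tbc1d4 (16 and 29) lie above the dashed line, and Rab43 (14 and 7) lies below the solid one.

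Transcripts of the libraries were next matched wherever they shared at least 1 bp of a strand. Of the IL-4 transcripts with a Tbc1d name, 65.6% (158 of 241) had no control counterpart, beside 48.1% of all IL-4 transcripts, and in the other direction the shares were 40.1% (55 of 137) and 37.4%. Without Tbc1d16 the Tbc1d share after IL-4 was 57.9% (110 of 190), and without Tbc1d16, Tbc1d8 and Tbc1d14 it was 50% (66 of 132), near the share of all transcripts. GTPase names gave 39.4% (91 of 231) and 31.6% (66 of 209). Wilson 95% intervals, which cover the counting of transcripts only, were 59.4% to 71.3% for the Tbc1d share and 33.3% to 45.8% for the GTPase share after IL-4. They treat transcripts of 1 gene as independent, although 51 of the 241 carried the name Tbc1d16. The intervals are therefore too narrow and do not measure the spread between genes. Limited to scores of 0.3 or more, the IL-4 shares were 37.7% for Tbc1d names, 7.87% for GTPases and 19.7% for all transcripts. The Tbc1d share at this limit was 22.4% without Tbc1d16 and 7.32% without Tbc1d16, Tbc1d8 and Tbc1d14. Where both libraries had a transcript, the GTPase pairs had the lower score after IL-4 in 78 of 143 cases and the higher one in 32, and the Tbc1d pairs in 46 and 12 of 82. The IL-4 score was lower in 54.5% of the GTPase pairs and 56.1% of the Tbc1d pairs, beside 54.3% over all pairs of the series. The GTPase share leaned on Rab8b, which alone supplied 30 of the 143 pairs. Of the 32 higher GTPase pairs 19 were of Rab8b, and of the 78 lower ones 4 were.

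Since a transcript is named after the nearest start site, names were checked against the genes. The highest transcript lay in the named gene and on its strand for 27 of 36 GTPases and 18 of 22 Tbc1d genes in control, and for 29 of 39 and 17 of 20 after IL-4. All transcripts overlapping a gene on its own strand were then counted whatever their name, and score times length was summed over them and centred as before. Whether the score is already scaled to length is not given, so the unit of this product is unknown. By this measure 3 of 31 GTPases were at least 2-fold higher (16.6% of 7223 genes were) and 5 lower (16.7%), and of 19 Tbc1d genes 4 were higher and 2 lower. The regulators had 3 of 6 lower, namely Rab11fip2, Rab11fip3 and Rab3gap1. Their transcripts in control and after IL-4 numbered 1 and 1, 5 and 1, and 5 and 3.

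Higher by this measure were Rab14 (1.74 on the log2 scale), Rab32 (1.41) and Rab35 (1.33), a Rab of fast recycling. For Rab35 the highest score on the same strand pointed the other way, with 0.3 in control and 0.1 after IL-4 (log2 value -1.17), while the summed score was 0.7 in both. Lower were Rab40c (-2.72), an adaptor of a ubiquitin ligase, Rab43 (-1.93), Rab20 (-1.77), Rab28 (-1.60) and Rab4a (-1.19), a Rab of recycling from early endosomes. Rab14 had 3 transcripts on its strand in control and 10 after IL-4. Rab40c had 16 and 5, of which 13 and 5 carried the name of another gene. Rab32 and Rab4a had 1 in each library, with scores of 0.2 and 0.3 for Rab32 and 0.3 and 0.2 for Rab4a. Rab28 had 2 and 1, the highest at 0.2 and 0.1. The values of Rab32, Rab4a and Rab28 thus rest on few transcripts of low, rounded score. Rab31, which was low by its highest score, had 15 and 31 transcripts on its strand, summed scores of 5.4 and 6.2 and a log2 value of 0.12. Rab5c likewise had 8 and 12 transcripts and a log2 value of 0.98. In all, 10 of 31 GTPases (Rab18, Rab22a, Rab24, Rab31, Rab33b, Rab35, Rab3d, Rab5b, Rab5c and Rab9) lay on opposite sides of the median gene by the highest score by name and by this measure.

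The higher Tbc1d genes were Tbc1d16 (5.29), Tbc1d14 (1.72), Tbc1d8 (1.29) and Tbc1d4 (1.13), and the lower ones Tbc1d24 (-1.41) and Tbc1d22b (-1.15). The side differed between the measures for 6 of 18 Tbc1d genes, Tbc1d1, Tbc1d15, Tbc1d17, Tbc1d24, Tbc1d5 and Tbc1d8. The plot along the genes shows where their transcripts lay. On the Tbc1d16 strand there were 3 transcripts with a summed score of 0.6 in control and 62 with a summed score of 16.7 after IL-4, covering 1.13% and 33.1% of its 85.5 kb. The farthest control transcript ended 34.1 kb from the start site and the farthest IL-4 transcript 85.3 kb from it. In the stretch from 20 to 40 kb there were 2 control and 18 IL-4 transcripts. Beyond 40 kb no control transcript was called, and after IL-4 there were 13 from 40 to 60 kb, 12 from 60 to 80 kb and 6 over 80 kb. The IL-4 transcripts of Tbc1d16 thus ran along the whole gene.

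Tbc1d14 (chr5:36490604-36593276) had 12 transcripts on its strand in control and 34 after IL-4, covering 3.22% and 13.8%. Its farthest transcripts lay 96.4 kb from the start in control and 101.6 kb after IL-4, so both libraries reached far into the gene. This start is the outer end of the annotated gene, and the nearest transcripts lay 11.5 kb from it in control and 10.9 kb after IL-4. Tbc1d8 (chr1:39371492-39478755) had 12 and 35, covering 2.32% and 12.0%, although its highest transcript, 5254 bp from the start in control, had the lower score after IL-4. A transcript within 1 kb of the Tbc1d8 start, with a score of 0.5, was called after IL-4 and none there in control. On the Rab8b strand the numbers were 45 and 70, with summed scores of 23.3 and 30.7. Of its 30 matched pairs by name 19 had the higher score after IL-4 and 4 the lower one. Transcripts on the Rab43 strand covered 17.2% of that gene in control and 7.32% after IL-4.

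**Figure D4:**
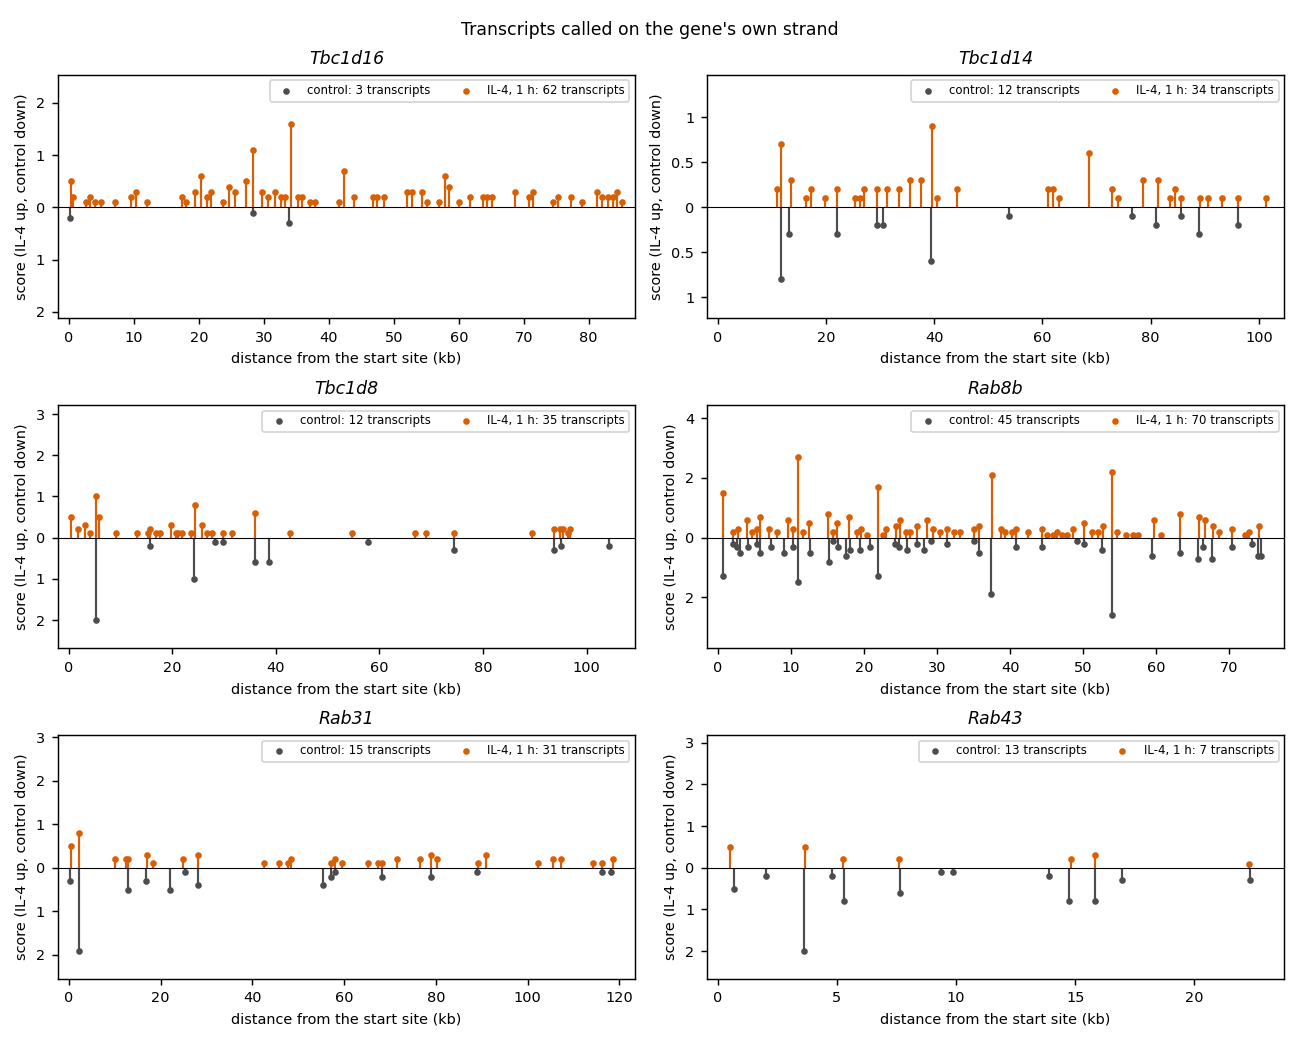
Transcripts called on the strand of 6 members: horizontal axes give the distance of each transcript's midpoint from the start site in kb, vertical axes its score, with IL-4 (n = 1 library) drawn upward and control (n = 1 library) downward. The start site is the outer end of the annotated gene. Tbc1d16 carries 3 control and 62 IL-4 transcripts, Tbc1d14 12 and 34, Tbc1d8 12 and 35, Rab8b 45 and 70, Rab31 15 and 31, and Rab43 13 and 7.

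IL-4 acts through STAT6, which binds a TTC and a GAA set apart by a longer spacer than other STAT proteins prefer. TTC and GAA separated by 4 bases of any kind (the longer spacing) or by 3 (the shorter) were searched on both strands of RefSeq promoters (GRCm38.p6, 250 bases before to 50 after each start). Each motif reads the same on both strands. A match of one is not a match of the other, although matches may overlap. Entries were found for 62 of the 68 member genes, 83 promoters in all. The longer spacing was in 3 of them, or 3.61%, and in 6.95% of all 32851 promoters, and the shorter was in 3, or 3.61%, and in 8.30%. The promoters with the longer spacing are shown because they are the members holding the STAT6-type letters. The match is in capitals, and bases in annotated exons or from the start on are left out.

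Rab5b, chr10:128696269-128696518, minus strand: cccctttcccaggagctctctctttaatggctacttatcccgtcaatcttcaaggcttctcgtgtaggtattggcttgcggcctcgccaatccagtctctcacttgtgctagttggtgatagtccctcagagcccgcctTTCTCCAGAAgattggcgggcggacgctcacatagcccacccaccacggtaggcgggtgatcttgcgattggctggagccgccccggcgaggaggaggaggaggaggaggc
Rab11b, chr17:33760588-33760736, minus strand: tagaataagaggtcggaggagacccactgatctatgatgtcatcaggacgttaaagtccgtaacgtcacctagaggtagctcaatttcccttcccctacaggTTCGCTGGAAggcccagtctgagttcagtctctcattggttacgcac
Tbc1d23, chr16:57201472-57201721, minus strand: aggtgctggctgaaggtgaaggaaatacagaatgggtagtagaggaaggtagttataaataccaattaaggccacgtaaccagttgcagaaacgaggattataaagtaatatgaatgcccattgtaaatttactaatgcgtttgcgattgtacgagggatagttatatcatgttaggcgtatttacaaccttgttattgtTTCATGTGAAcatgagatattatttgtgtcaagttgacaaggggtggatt

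The highest scores of these genes were 2.2 and 1.2 for Rab5b, 1.3 and 1.0 for Rab11b and 0.5 and 0.3 for Tbc1d23, in control and after IL-4, with centred log2 ratios of -0.50, 0.00 and -0.36. None of the 3 was past 2-fold. The matches began 111, 148 and 50 bases before the annotated starts. The Tbc1d23 match lay before an inner start, and the promoter at its outer start (chr16:57231505-57231716) held neither spacing. The Tbc1d23 control transcript with the score of 0.5 (chr16:57221313-57221371) lay upstream of that inner start. For comparison, the sequences before the starts of Rab43 and Rab14, the called GTPase and one above the median gene by both measures, are given in lower case, as neither spacing was found in them.

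Rab43, chr6:87812165-87812414, minus strand: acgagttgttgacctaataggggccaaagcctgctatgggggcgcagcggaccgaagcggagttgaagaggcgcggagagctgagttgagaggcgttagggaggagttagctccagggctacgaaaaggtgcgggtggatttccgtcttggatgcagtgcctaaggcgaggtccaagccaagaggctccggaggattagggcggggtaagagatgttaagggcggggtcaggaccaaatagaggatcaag
Rab14, chr2:35201121-35201370, minus strand: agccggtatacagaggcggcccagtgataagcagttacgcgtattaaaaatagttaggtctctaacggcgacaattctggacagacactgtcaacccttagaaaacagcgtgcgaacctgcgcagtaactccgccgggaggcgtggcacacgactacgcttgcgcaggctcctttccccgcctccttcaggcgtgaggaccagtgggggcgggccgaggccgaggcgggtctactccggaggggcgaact

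A match is a description of letters and not a binding site, and its absence says only that these letters are not in this window. The shorter spacing was found in Rab11a, Rab19 and Rab25, of which Rab11a had the ratio of -0.94 given above.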

How the data were processed

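GRO-seq libraries of BMDMs were analysed from the transcript lists the authors deposited, 1 per condition. Per the submitters' processing notes and the study's methods, reads were aligned to mm10 (BWA 0.7.10, SAMtools 0.1.19), regions on the ENCODE artifact list were removed, and transcripts were called per library and annotated with HOMER 4.2. Per the file headers the deposited value is a peak score, rounded to 1 decimal, whose scaling and depth are not given in the sources used here. All transcripts were kept, and 13 IL-4 transcripts with a score of 0 were set to 0.05 in ratios. Genes were located in GENCODE M21 (21951 protein-coding genes), and Rab1 and Rab7l1 were matched to Rab1a and Rab29 by Ensembl identifier. Analysis used Python 3.11.15 and pandas 2.3.3, and was tested on simulated data.

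Members and gene lists were chosen with earlier results of these data known. Named were members past 2-fold, those in 1 library only with a score of at least 0.3, the 5 highest per family and a set of well known Rab and Tbc1d genes. Members named for transcript numbers, for score times length or for a promoter motif, as well as Rab1, Rab2a, Rab3il1 and the members in 1 library only with lower scores, were chosen after their values were seen. Alternatives were other gene values, filters, centring, folds and overlaps. Score times length and summed scores on the gene's own strand were added after the data were seen. Libraries were grouped by their treatment label. Promoters came from a RefSeq table, and the Tbc1d16 promoter was not analysed here.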

Additional observations from a re-analysis of the deposited data

How the results depend on the processing

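Counts are given as higher and lower genes. For the Rab GTPases (0 and 1 as reported) they were 1 and 3 for the sum of scores, 3 and 7 for the sum of score times length, 1 and 7 for the transcript nearest the start site, 1 and 2 for the highest score on the own strand, 0 and 0 without repeat transcripts, 0 and 11 without centring, 0 and 2 among genes at or above the median gene value, 2 and 2 with missing values set to 0.1, 5 and 11 at 1.5-fold, 3 and 5 for own-strand score times length and 2 and 4 for own-strand summed scores. For the Tbc1d genes (1 and 0 as reported) there were 5 higher for the sum of scores. Their counts were 7 and 1 for score times length and 3 and 2 for the nearest transcript, with 2 higher without repeats. Without centring they were 1 and 3, and at 1.5-fold 3 and 3. They were 4 and 2 for own-strand score times length and 2 and 3 for own-strand summed scores. Over all genes the shares higher and lower were 13.6% and 13.7% for the sum of scores, 17.2% and 16.9% for score times length, 11.0% and 27.7% for the nearest transcript, 11.6% and 8.39% for the highest score on the own strand, 9.98% and 11.3% without repeats, 5.98% and 24.3% without centring, 8.11% and 11.3% above the median value, 13.1% and 12.3% with missing values set, 20.2% and 24.4% at 1.5-fold and 12.6% and 13.96% for own-strand summed scores. The Tbc1d median was -0.34 without centring. The nearest transcript turned the sign of Rab43, to 1.32, although the places compared may differ between the libraries. The shares without a counterpart, for all names of the Rab rule, were 17.1% of control and 8.57% of IL-4 transcripts at scores of 0.3 or more and 60.1% of IL-4 transcripts at 50% overlap, and for Tbc1d names 14.1%, 37.7% and 78.4%, beside 22.5%, 19.7% and 64.2% of all transcripts. The cause of these shifts was not tested. Of the values of single named genes under alternatives, 108 stayed in their rounding range, 122 left it and 1 called value changed sign.

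No paired analysis was possible because each condition had 1 library, which also leaves no replicate to omit. A score is known only to within 0.05, and ratios of members near the lowest score of 0.1 have wide rounding ranges. The limit of transcript calling is unknown without depth.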

Other observations

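Other genes of the Rab cycle were listed by role. Of 102 such names 64 had a value in both libraries, with a median centred log2 ratio of -0.07, and 4 were at least 2-fold higher and 7 lower, beside 8.06% and 8.62% of all genes. The rounding range lay wholly past 2-fold for 2 of these 11, Dennd1a and Rilpl2. The higher ones included Dennd1a, an exchange factor for Rab35, with a highest score of 3.5 in control and 6.3 after IL-4. Its centred log2 ratio was 1.23, and 32 and 115 transcripts carried its name. Its highest transcript in both libraries was annotated as a simple repeat in the fifth intron. The other 3 were Icmt (0.2 and 0.4), a methyltransferase that acts on prenylated proteins, and the effectors Rabepk (0.2 and 0.4) and Rilp (0.1 and 0.2). Lower were the exchange factors Dennd4b and Dennd6a, the TBC proteins Evi5l and Tbck, and the effectors Rilpl2 (1.1 and 0.3), Ehbp1l1 (1.7 and 0.6) and Optn (0.4 and 0.1). The control value of Rilp and the IL-4 value of Tbck were annotated to transcripts of neighbouring genes. The values of Dennd4b and Rabepk were annotated as intergenic in both libraries. By role, 1 of 21 exchange factors was higher and 2 lower, 2 of 6 other GTPase-activating proteins were lower, and 2 of 30 effectors were higher and 3 lower.

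A further 19 Rab GTPases, 4 regulators and 8 Tbc1d genes of the annotation gave their name to no transcript, and 4, 1 and 1 of them had transcripts on their own strand. One was Rab7b, a Rab of late endosomes and the Golgi, chosen after its values were seen (chr1:131688695-131715439). In control it held 12 transcripts, the highest at 0.6 and all summing to 3.8, and 1 after IL-4 with a score of 0.2. Its centred log2 value for score times length was -3.83. These transcripts carried the name 5430435G22Rik, an older symbol of Rab7b in the RefSeq table, so the choice of members by name left it out of the family counts.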
